A study of Mus musculus with 12 samples.

Results

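Colon epithelium of mice lacking cytochrome P450 oxidoreductase (POR-null) was compared with that of wild type mice after both had eaten quercetin for 24 h. The comparison uses 6 of the study's 12 Affymetrix 430A arrays, chosen by their labels: 3 of POR-null and 3 of wild type mice on the quercetin diet, across all 22626 probe sets that are not array controls. All mice were male, of 6 to 8 weeks, and the labels give C57BL/6 as the strain of both genotypes. All had first eaten a soya-free powdered RM3 diet for 14 days. The quercetin groups then received the same diet with quercetin at 6200 ppm (0.62%), a high dose of about 7 mg per mouse, and the remaining 6 arrays came from mice of both genotypes that stayed on the plain diet.

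Each array received RNA pooled from 3 mice, so a group stands for 9 animals and a replicate is a pool. The epithelium was scraped from the colon, defined as the gut between caecum and rectum. The labels describe the null mice only as cytochrome P450 reductase null, and name no promoter, Cre driver or tissue of the deletion. Por itself is not analysed here, so the array values give no check of the genotype labels. As the groups consist of pools, p-values measure the spread between pools.

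POR is the flavoprotein that passes electrons from NADPH to the microsomal cytochrome P450 enzymes, and also to squalene epoxidase, haem oxygenase and cytochrome b5. Without it, microsomal P450s of the same cell cannot complete their catalytic cycle, which touches drug oxidation, bile acid synthesis and the demethylation of lanosterol to cholesterol. Quercetin is a flavonol of onions, apples and tea that the gut conjugates to glucuronides, sulfates and methyl ethers, and it is known as a ligand of the aryl hydrocarbon receptor in cultured cells. The comparison asks which transcripts of the colon differ between the genotypes while the flavonol is being eaten.

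The 6 arrays resembled each other in overall signal. Their medians lay between 5.92 and 5.98 log2 units, and the correlation across probe sets between 2 arrays was 0.9872 to 0.9915 within a genotype (median 0.9896) and 0.9854 to 0.9926 between genotypes (median 0.9904). The arrays of a genotype were thus no more alike than arrays of different genotypes. Signal of the actin control probe sets at the 3′ end exceeded that at the 5′ end by 1.03 to 1.29 log2 units.

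Markers of tissue other than colon epithelium varied more than these totals between pools. Over 18 smooth muscle genes, the mean log2 signal was 6.34, 7.34 and 8.78 in wild type arrays 1 to 3 on quercetin, and 7.32, 7.09 and 7.06 in the POR-null arrays. Over 21 genes of pancreatic acinar cells, it was 6.63, 7.40 and 6.73 in wild type and 7.13, 9.16 and 7.08 in POR-null. Wild type array 3 therefore stood apart for muscle and POR-null array 2 for pancreatic transcripts. Markers of the epithelium itself were bright in every array. The mean over 16 absorptive colonocyte genes was 11.20 to 11.44 in wild type and 11.25 to 11.50 in POR-null. For the gene groups these 2 arrays move most, values without them are given below.

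**Figure D1:**
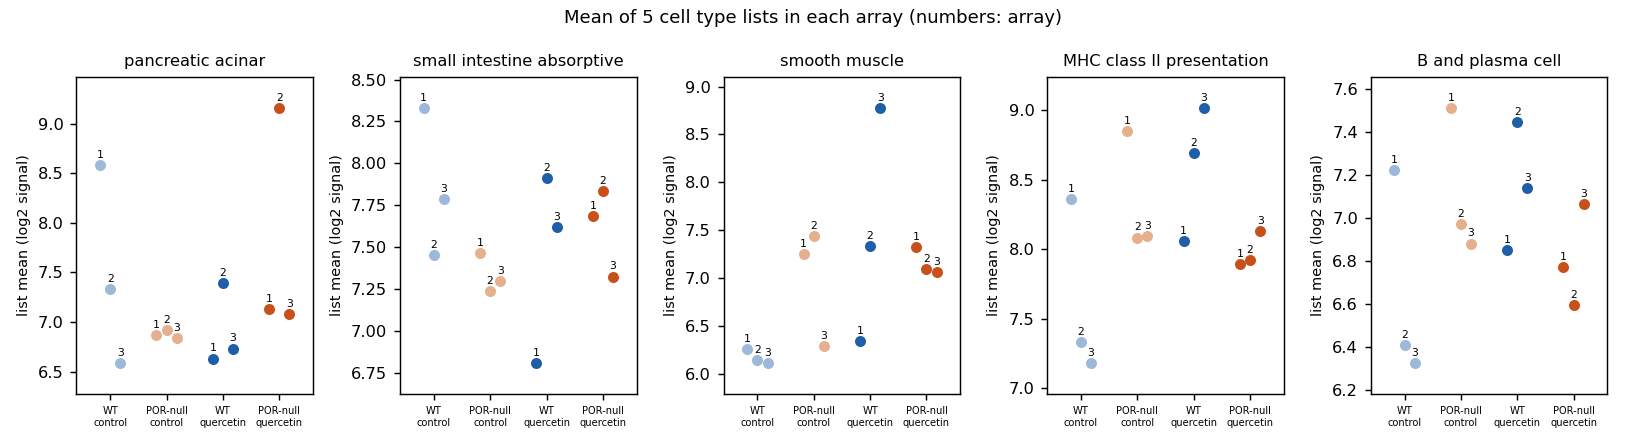
Mean log2 signal of 5 cell type lists in each of the 12 arrays, one point per array with its number, by genotype and diet. Wild type quercetin array 3 lies highest for smooth muscle (8.78) and POR-null quercetin array 2 for pancreatic acinar genes (9.16), while MHC class II genes lie between 8.06 and 9.02 in wild type and 7.89 and 8.13 in POR-null arrays on quercetin.

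No probe set differed between the genotypes on the quercetin diet after adjustment for multiple testing. The lowest Benjamini-Hochberg adjusted p among 22626 probe sets, from limma fitted to all 12 arrays, was 0.926 (0% called). Without adjustment, 541 probe sets (2.39%) had a p under 0.05, 234 higher (1.03%) and 307 lower (1.36%) in POR-null. All 3 arrays of one genotype lay above all 3 of the other for 1544 probe sets (6.82%), 698 higher (3.08%) and 846 lower (3.74%) in POR-null. Random labels would give shares of about 0.1 without overlap and 0.05 at that p, and both observed shares were lower. Absence of overlap thus marks no gene as different by itself. The middle 95% of differences ran from -0.27 to 0.227 log2 units, against a median standard error of 0.1124. By the brightest probe set of each of 12393 genes, 5874 (47.4%) were higher in mean in POR-null, 282 (2.28%) had an unadjusted p under 0.05, 829 (6.69%) were without overlap and 28 (0.226%) differed by at least 1 log2 unit, which is 2-fold. Everything named below is a measured difference that did not pass the adjusted test, unless an alternative fit is mentioned.

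Among the 28 genes that differed by at least 1 log2 unit, 16 were higher (0.129% of all genes) and 12 lower (0.0968%) in POR-null. Of the 16 higher, 10 belonged to the list of pancreatic acinar genes, among them Cela2a (elastase, 1.66), Cpb1 (carboxypeptidase B, 1.63), Ctrb1 (chymotrypsinogen, 1.58) and Reg1 (1.49). The others included the lectin Itln1 (2.68), the matricellular protein Ccn3 (1.92), the guanylate binding protein Gbp2b (1.71) and the P450 Cyp3a11 (1.48). Of the 12 lower genes, 3 encode MHC class II molecules or their chaperone, H2-Aa (-1.18), Cd74 (-1.08) and H2-Eb1 (-1.05). Sdc4 (-2.14), the bile acid binding protein Fabp6 (-1.66) and the B cell receptor chain Cd79b (-1.43) were among the other lower genes. The 2 groups of 3 arrays did not overlap for 3 of the 16 higher genes (Itln1, Ccn3 and Gbp2b) and 4 of the 12 lower ones (Sdc4, Ighv14-2, Cd74 and Ltb). These counts stand beside 3.01% of all genes without overlap and higher, and 3.68% without overlap and lower.

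The gene with the lowest p of those higher in POR-null was Ccn3, a secreted matricellular protein of the CCN family, formerly called Nov. Its log2 signal was 5.47, 4.42 and 3.72 in wild type and 5.96, 6.79 and 6.63 in POR-null arrays on quercetin. Every POR-null array lay above every wild type array. The mean was 4.54 ± 0.88 against 6.46 ± 0.44 (SD, n = 3), a difference of 1.92 log2 units or 3.79-fold (95% interval 1.16 to 2.69, limma adjusted p = 0.926). The second probe set of the gene gave 2.04. On the control diet the order was the opposite and again without overlap, at -1.27 log2 units. Leaving out wild type array 1 raised the difference to 2.39 and brought the limma Benjamini-Hochberg adjusted p to 0.04394. Without the 2 arrays that stood apart for muscle and pancreas it was 1.35, with an adjusted p of 0.9965.

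Deptor, an inhibitory subunit of the mTOR complexes, was 8.65, 8.31 and 8.31 in wild type and 8.86, 9.09 and 9.27 in POR-null on quercetin. The groups did not overlap, and the difference was 0.65 log2 units (SE 0.12), or 1.57-fold. The other probe sets of Deptor gave 0.22 and 0.05, so the difference rested on 1 of 3. Deptor was 0.21 lower in POR-null on the control diet by the same probe set. Deptor lies on chromosome 15 with 3 protein-coding genes between it and Ccn3.

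Serinc3, a membrane protein of the serine incorporator family, was 9.95, 9.91 and 9.75 in wild type and 10.38, 10.40 and 10.37 in POR-null. The 3 POR-null pools were nearly identical and above all wild type pools, and the 5 probe sets of Serinc3 all lay higher, by 0.16 to 0.51. Pm20d1, an enzyme that joins fatty acids to amino acids, was 6.78, 7.04 and 6.67 in wild type and 7.71, 7.58 and 7.46 in POR-null. Its difference was 0.75 log2 units (SE 0.19), and a second probe set gave 1.12 with overlap. By their lowest-p probe sets both genes were lower in POR-null on the control diet, Serinc3 by 0.16 and Pm20d1 by 0.10. The second probe set of Pm20d1 was higher there by 0.09.

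Gbp2b, an interferon-inducible GTPase, was 5.12, 5.20 and 5.14 in wild type and 5.25, 7.47 and 7.86 in POR-null. Only POR-null arrays 2 and 3 were bright, and POR-null array 1 exceeded the wild type pools by little. The difference of 1.71 log2 units (SE 0.46) had a limma Benjamini-Hochberg adjusted p of 0.9978. It grew to 2.51 without POR-null array 1, where that adjusted p was 1.207e-05. Leaving out this pool, the one that hardly differed, narrows the spread. Without any other single quercetin array the adjusted p was 0.9981 or above. The difference was 1.40 without wild type array 3 and POR-null array 2. Gbp2b differed by -0.02 on the control diet. It was the member of its family that differed most, as described with the immune genes.

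Tradd, the adaptor of TNF receptor signalling, was 8.00, 8.09 and 7.85 in wild type and 8.31, 8.28 and 8.31 in POR-null. It was higher by 0.32 on quercetin and by 0.28 on the control diet, without overlap on either. Tradd had the smallest difference of the 12. Differences without overlap were also measured for Thoc7 of the mRNA export complex THO (0.47), the interferon-inducible Epsti1 (0.40), the zinc finger gene Zfp37 (0.38), the small GTPase Ralb (0.35), the mannose binding lectin Mbl2 (0.35) and Nat8f4 (0.49). Other probe sets of Thoc7 gave -0.00, of Zfp37 -0.08, of Epsti1 0.16 and -0.03, and of Nat8f4 0.07 and 0.05. The lowest-p probe sets of Zfp37 (means 3.80 in wild type and 4.18 in POR-null) and Nat8f4 (3.98 and 4.47) were weak. Both lay below the lower quartile of the 6 arrays, 4.72 to 4.78. The 12 higher genes, ranked by p among those without overlap, thus spanned 0.32 to 1.92 log2 units. Of the 10 that have further probe sets, 3 had another one without overlap in the same direction and 3 had one in the opposite direction. Of the 12, 6 were higher in POR-null and 5 lower on the control diet.

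Sdc4 had the lowest p of the genes lower in POR-null. It encodes syndecan 4, a heparan sulfate proteoglycan of the cell surface that takes part in adhesion and growth factor binding. Its log2 signal was 9.92, 9.37 and 9.15 in wild type and 7.47, 7.39 and 7.15 in POR-null on quercetin. All POR-null pools lay far below all wild type pools, with means of 9.48 ± 0.40 and 7.34 ± 0.17 (SD, n = 3). The difference was -2.14 log2 units, 4.42-fold (95% interval -3.00 to -1.28, limma adjusted p = 0.926). Fitted on the 6 quercetin arrays alone, Sdc4 was the only probe set past the threshold, with a limma Benjamini-Hochberg adjusted p of 0.03139. A second probe set of Sdc4 gave 0.28 in the opposite direction, so the 2 probe sets of the gene disagree. On the control diet the first probe set was 9.39, 7.71 and 7.83 in wild type and 9.66, 8.54 and 8.54 in POR-null. Those groups overlapped, and wild type array 1 of the control diet was as bright as the quercetin wild type pools.

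Sys1, a Golgi membrane protein, is the next protein-coding gene to Sdc4 on chromosome 2, with 0 between them. Its lowest-p probe set was lower by 0.36 without overlap, and other probe sets of Sys1 gave 0.05 and 0.05. Serinc3, higher in POR-null, lies on the same chromosome with 23 protein-coding genes between it and Sdc4.

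Slc37a2, a sugar phosphate transporter of the endoplasmic reticulum, was 6.05, 6.61 and 5.82 in wild type and 5.41, 5.16 and 5.37 in POR-null. It was lower by 0.85 log2 units (SE 0.20), 1.80-fold, without overlap, and differed by 0.09 on the control diet. Zfp46, a zinc finger gene, was 7.48, 7.32 and 7.45 in wild type and 7.08, 6.74 and 7.07 in POR-null. The wild type pools of Zfp46 were all brighter, the difference was -0.45 (SE 0.10), and its other probe set gave -0.07.

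Several further lower genes belong to blood cells or to general cell machinery. Cst7 (cystatin F, of cytotoxic and myeloid cells) differed by -0.35, Plek (pleckstrin, of platelets and leukocytes) by -0.38 and Clnk (an adaptor of haematopoietic cells) by -0.27. Eny2 of the SAGA and mRNA export complexes differed by -0.59, Mau2 of the cohesin loader by -0.37, Srprb of the signal recognition particle receptor by -0.32 and Psmd7 of the proteasome cap by -0.28. Other probe sets of Eny2 gave -0.04, 0.06 and 0.06, and the brightest probe sets gave 0.12 for Mau2, 0.04 for Srprb, 0.02 for Plek and -0.13 for Psmd7, all with overlap. Zfp40 was near the bottom of the scale, at 2.95 in POR-null and 3.13 in wild type. Clnk, at 3.50 and 3.77, was also below the lower quartile of the 6 arrays, which was 4.72 to 4.78. Cst7 (4.59 and 4.94) and the lowest-p probe set of Plek (4.60 and 4.98) lay near that quartile. The 12 lower genes spanned 0.19 to 2.14 log2 units in size. Of the 8 with further probe sets, 0 had another one without overlap in the same direction and 7 had one in the opposite direction. Of the 12, 9 were higher in POR-null on the control diet.

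**Figure D2:**
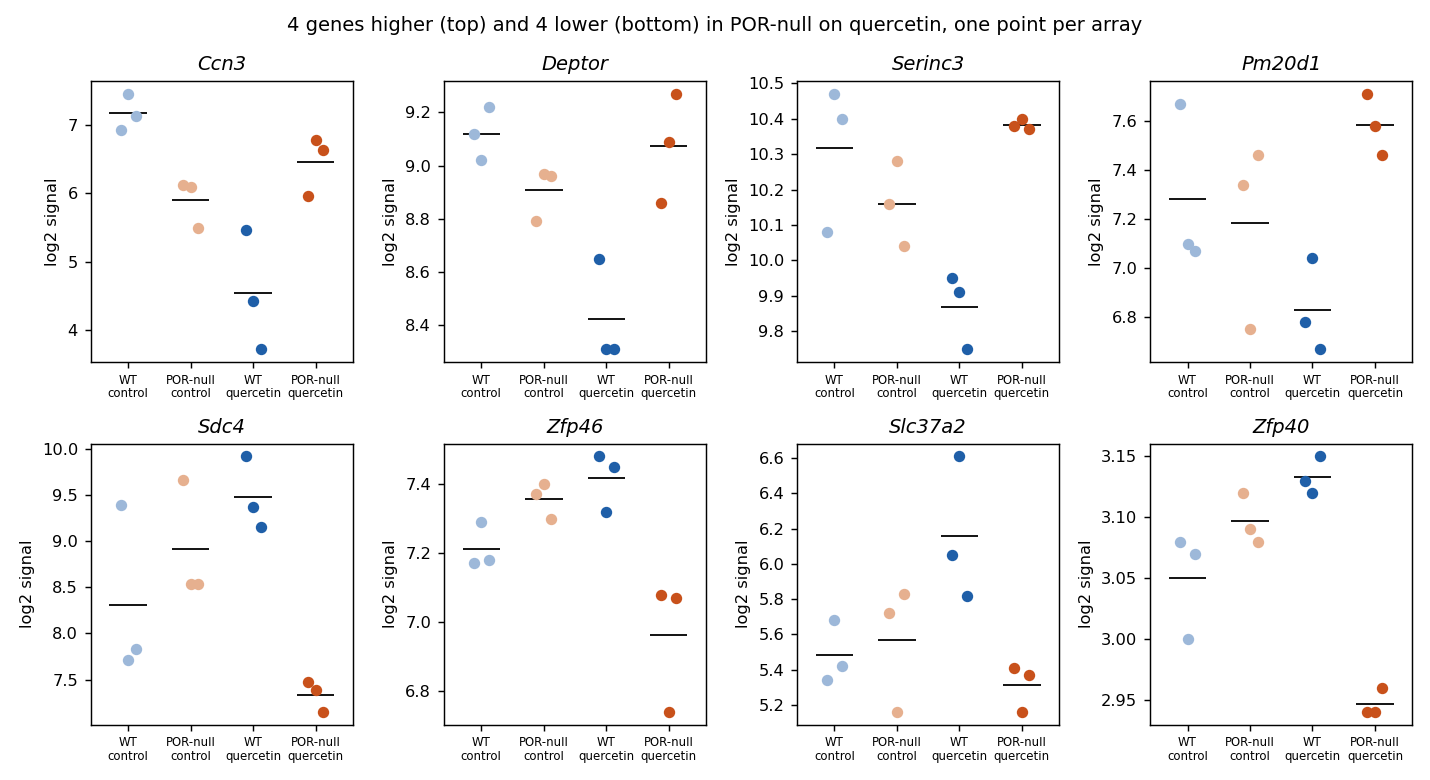
Log2 signal of 4 genes higher and 4 lower in POR-null on quercetin, one point per array, with the group mean as a line, for all 4 groups of genotype and diet. The genes were picked from those without overlap on quercetin, so the absence of overlap in every quercetin panel is set by that choice. Means of POR-null and wild type on quercetin were 6.46 and 4.54 for Ccn3 and 7.34 and 9.48 for Sdc4. The control diet groups often overlap or lie the other way.

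The same genotype comparison on the control diet, which uses other arrays, called 0 of 22626 probe sets with a lowest limma Benjamini-Hochberg adjusted p of 0.545, and 1537 (6.79%) had an unadjusted p under 0.05. Across probe sets, the genotype differences on the 2 diets had a Pearson correlation of -0.309 and a Spearman correlation of -0.038. The values share arrays within a diet and are not independent, so both correlations are descriptions. Both groups were free of overlap on both diets for 45 genes in the same direction (0.363%) and for 40 in opposite directions (0.323%). In the test of the difference between diets the lowest limma Benjamini-Hochberg adjusted p was 0.45, with 0 probe sets past the threshold and 1073 (4.74%) at an unadjusted p under 0.05. The genotype effect averaged over the diets gave 0 past the threshold as well, a lowest adjusted p of 0.997 and 946 (4.18%) at an unadjusted p under 0.05.

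The genes of the lowest p in that average whose groups were without overlap on both diets differed by 0.18 to 0.47. Rraga, a Rag GTPase of amino acid sensing, was lower by 0.22 on quercetin and 0.44 on the control diet. Besides Tradd, the lipase-like Pnpla7 (0.30 and 0.25), the guanylate cyclase activator Guca1a (0.31 and 0.26) and Ypel5 (0.19 and 0.47) were higher on both, while Cenpo of the centromere was lower (-0.18 and -0.45). The brightest probe set of Ypel5 gave 0.06 on quercetin and 0.41 on the control diet, and that of Cenpo gave 0.08 on quercetin. Each of these was without overlap on both diets by the probe set named.

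For comparison, 10 genes chosen for their control diet differences were looked up on quercetin. By the probe set of the lowest control diet p, 4 lay in the same direction on quercetin and 6 in the opposite one, and 2 of the 10, Rraga and Ypel5, were without overlap on quercetin, against 6.82% of all probe sets. The largest difference of the 10 on quercetin was 0.28 in size, against 0.34 to 1.04 on the control diet. Mpst, a sulfurtransferase of hydrogen sulfide production, differed by -0.08 on quercetin and by -1.04 on the control diet. The fatty acid transporter Slc27a2 gave 0.00 and -0.65, and the brush border peptidase Xpnpep2 0.28 and -0.85. The dynein heavy chain gene Dync1h1 gave -0.10 and 0.43, and the snoRNA host gene Gas5, by 1 probe set, -0.22 and 0.71. The transcription factor Klf7 gave 0.18 and 0.70, the galectin-like Lgalsl -0.01 and 0.61, and the Hippo pathway kinase Lats2 0.01 and -0.34.

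**Figure D3:**
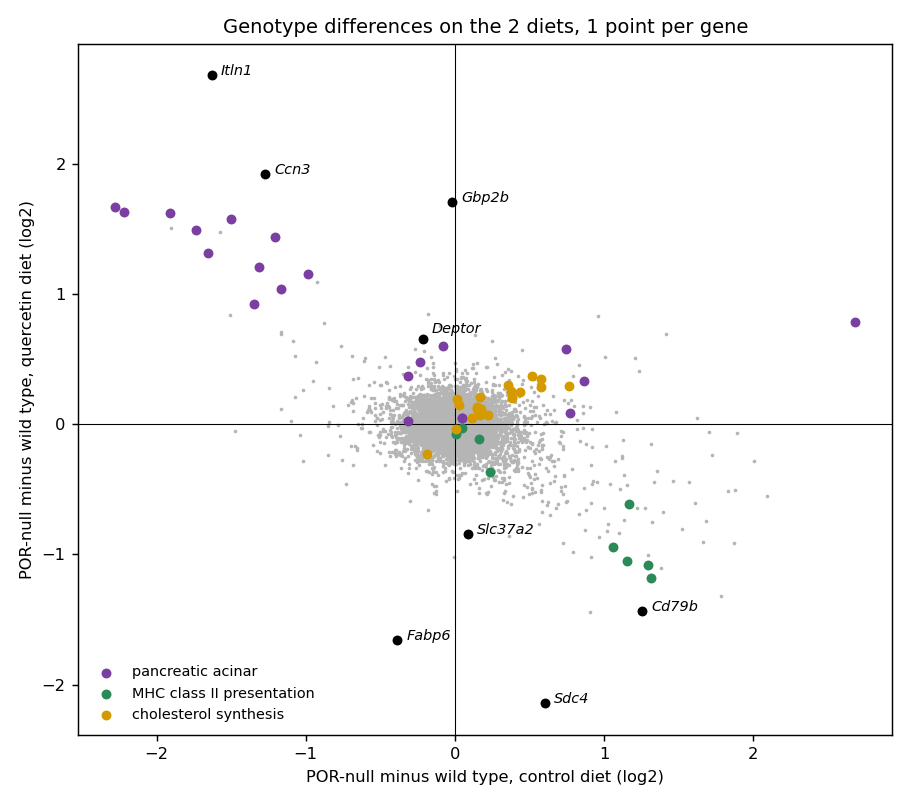
Genotype difference (POR-null minus wild type, log2) of each of 12393 genes on the control diet (x axis) and on the quercetin diet (y axis), with 3 lists coloured and 8 genes labelled. Cholesterol synthesis genes lie mostly above 0 on both axes, MHC class II genes lie right and below, and most acinar genes lie left and above.

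Genes of drug metabolism were near even between the genotypes on quercetin. Of 37 measured cytochrome P450 genes, 23 were higher and 14 lower in POR-null, with a median of 0.03 against -0.0033 over all genes, and 0 had an unadjusted p under 0.05. Of 13 electron transfer genes, partners of POR and other reductases such as Mtrr and Nqo1, 9 were higher and 4 lower (median 0.04). Conjugating enzymes counted 18 higher and 14 lower (median 0.02), while on the control diet 28 of the 32 were lower (median -0.187), 7 of them at an unadjusted p under 0.05, against 2.75% of all genes lower at that level there. The widest difference was that of Cyp3a11, a drug and bile acid oxidising P450, at 5.60, 8.50 and 7.22 in wild type and 8.57, 9.11 and 8.07 in POR-null. Wild type array 1 was far below the other pools, the groups overlapped, and the difference of 1.48 had a 95% interval of -0.06 to 3.01. Cyp3a11 was lower in POR-null by 1.58 on the control diet, without overlap. Cyp3a25 (0.78) and Cyp2b10 (0.40) were also higher in mean on quercetin, and wild type array 1 held their lowest values at 3.82 and 5.63. Without that array the differences were 0.723 for Cyp3a11, 0.497 for Cyp3a25 and 0.15 for Cyp2b10.

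Cyp1a1, the P450 most strongly controlled by the aryl hydrocarbon receptor, was 6.02, 5.90 and 6.11 in wild type and 6.16, 5.95 and 5.97 in POR-null. The groups overlapped almost fully, with a difference of 0.02 (95% interval -0.24 to 0.27). Cyp1b1, another target of the receptor, differed by -0.09. Over 10 genes of the receptor's pathway, its partner Arnt included, 4 were higher and 6 lower (median -0.01). Nqo1, the quinone reductase induced by NRF2, differed by -0.03 (95% interval -0.54 to 0.47), against -0.62 on the control diet. Of 27 genes in a list of NRF2 targets and regulators, 17 were higher and 9 lower (median 0.037). Srxn1, which repairs peroxiredoxins, was 6.51, 6.87 and 6.79 in wild type and 7.00, 6.92 and 7.10 in POR-null, a difference of 0.28 without overlap, and its brighter probe set gave 0.23 with overlap.

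Among enzymes that conjugate flavonoids and drugs, the glutathione transferase Gsta3 differed by -0.32 and the glucuronosyltransferase Ugt2a3 by 0.33, both with overlap. Cyb5b, the outer mitochondrial membrane cytochrome b5, differed by 0.19. Of 11 efflux transporters, 7 were higher and 4 lower (median 0.073). Abca1, the cholesterol efflux pump, was 5.74, 6.11 and 6.16 in wild type and 5.68, 5.42 and 5.64 in POR-null. It was lower by 0.42 without overlap and was the only one of the 11 with an unadjusted p under 0.05, against 1.33% of all genes lower at that level. Its other probe sets gave -0.62 and -0.05 with overlap. Abcc5, an exporter of cyclic nucleotides and organic anions, was higher by 0.17 on quercetin and lower by 0.16 on the control diet, without overlap on either.

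Genes of cholesterol synthesis were mostly higher in mean in POR-null on both diets. On quercetin 17 of 19 measured genes were higher in mean and 2 lower, with a median of 0.19 log2 units, against 47.4% of all genes higher and a median of -0.0033. On the control diet, in other arrays, 18 of 19 were higher (46.7% of all genes) with a median of 0.173, and 17 were higher on both. Not a single one of the 19 had an unadjusted p under 0.05 on quercetin, while 6 did on the control diet, against 3.71% of all genes higher at that level there. The list was proposed with this pattern in view, so these counts are a description. The mean over the 19 genes was 8.05, 7.95 and 7.92 in wild type and 8.07, 8.07 and 8.28 in POR-null on quercetin. The groups did not overlap, but wild type array 1 and the first POR-null arrays were close together and POR-null array 3 was the highest. Without POR-null array 3 the median was 0.115, and without the 2 arrays that stood apart for muscle and pancreas it was 0.2.

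Of the 19 genes, 3 were without overlap and higher on quercetin (Hmgcs1, Cyp51 and Ebp), against 3.01% of all genes. The CCAAT box, bound by the factor NF-Y that acts beside SREBP2 on sterol genes, was searched as CCAAT on both strands in the 250 bases before the start, together with the sterol element written TCACNCCAC. Their promoter sequences, from RefSeq on GRCm38.p6, are shown because these were the members without overlap, although Msmo1 and Sqle differed more and Ebp differed by less than the list's median. They lie at chr13:119690101-119690350 (+ strand) for Hmgcs1, chr5:4104698-4104947 (- strand) for Cyp51 and chrX:8193513-8193762 (- strand) for Ebp, are written 5′ to 3′, and carry the matches in capitals (ATTGG is CCAAT on the other strand).
Hmgcs1: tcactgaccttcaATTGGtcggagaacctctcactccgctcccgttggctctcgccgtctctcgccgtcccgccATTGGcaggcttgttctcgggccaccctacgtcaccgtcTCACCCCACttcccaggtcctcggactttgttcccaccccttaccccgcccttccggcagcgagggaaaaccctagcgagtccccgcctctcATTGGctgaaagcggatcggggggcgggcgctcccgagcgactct
Cyp51: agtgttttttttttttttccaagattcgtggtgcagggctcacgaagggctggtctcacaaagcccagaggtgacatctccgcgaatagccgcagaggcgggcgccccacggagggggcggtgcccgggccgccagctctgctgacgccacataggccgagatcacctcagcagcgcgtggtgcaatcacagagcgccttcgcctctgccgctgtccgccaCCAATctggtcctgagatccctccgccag
Ebp: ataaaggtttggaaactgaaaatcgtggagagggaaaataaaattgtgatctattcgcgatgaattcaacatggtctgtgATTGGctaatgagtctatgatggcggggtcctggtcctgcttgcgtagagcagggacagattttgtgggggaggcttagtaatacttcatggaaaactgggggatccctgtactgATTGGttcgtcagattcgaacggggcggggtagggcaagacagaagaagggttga
All 15 members with a promoter in the table held CCAAT, against 37.495% of 27025 genes. The element TCACNCCAC was found in 1 of 15, Hmgcs1, against 1.225% of genes. A match is a string of letters and not a binding site.

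Hmgcs1, the synthase that feeds HMG-CoA into the pathway, was 10.36, 10.41 and 10.42 in wild type and 10.65, 10.45 and 10.96 in POR-null on quercetin. Cyp51, the lanosterol demethylase and itself a P450 that needs POR, was 7.47, 7.48 and 7.26 against 7.76, 7.49 and 7.70. The gap between the nearest pools of Cyp51 was only that between 7.48 and 7.49. Ebp, the sterol isomerase, was 8.60, 8.66 and 8.50 against 8.71, 8.69 and 8.71. Their differences were 0.29, 0.25 and 0.12 on quercetin and 0.76, 0.44 and 0.17 on the control diet. Msmo1, which removes methyl groups after Cyp51, gave 0.37 and 0.52, and Sqle, the squalene epoxidase that takes electrons from POR, 0.30 and 0.36. Sc5d, a desaturase late in the pathway, was lower by 0.23 on quercetin, and Tm7sf2 was the other lower gene.

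**Figure D4:**
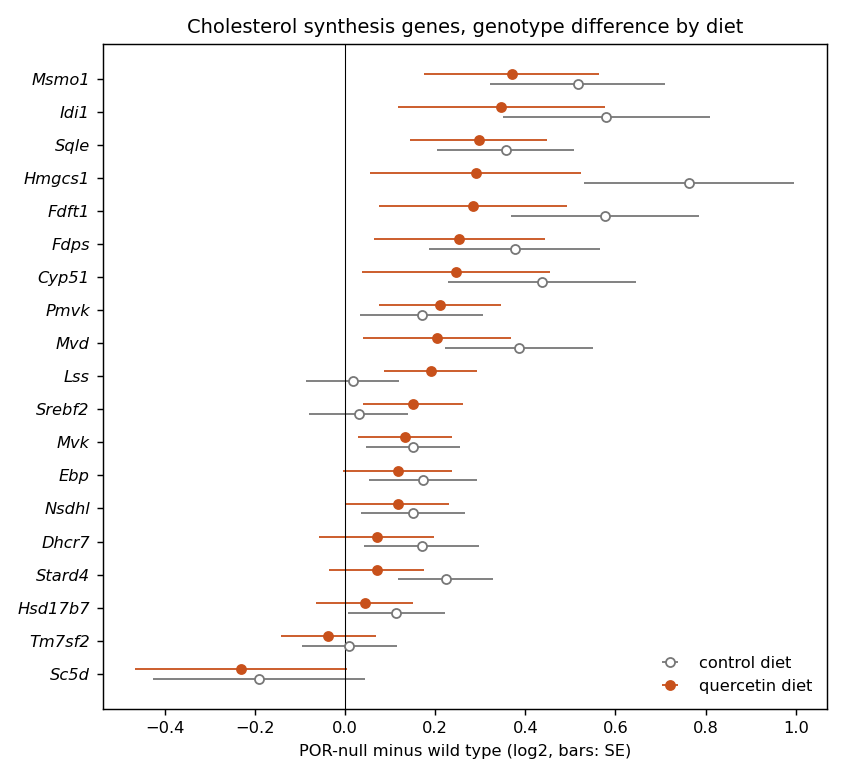
Genotype difference (POR-null minus wild type, log2 units, bars standard error) of the 19 measured cholesterol synthesis genes on the quercetin and the control diet. On quercetin 17 of 19 lie above 0, from small values to 0.37 for Msmo1, with Sc5d lowest at -0.23.

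Of 19 lipogenesis genes, 15 were higher and 4 lower on quercetin (median 0.043), and 13 were higher on the control diet (median 0.153). At an unadjusted p under 0.05, 6 were higher on the control diet, against 3.71% of all genes. On quercetin 0 were higher at that level, against 0.944% of all genes. Their mean was 7.65, 7.66 and 7.64 in wild type and 7.68, 7.71 and 7.77 in POR-null on quercetin. The groups did not overlap, by the narrow gap between 7.66 and 7.68. Of the 50 lists, only this one and cholesterol synthesis had means without overlap on quercetin. Random labels would give a share of about 0.1, so this absence of overlap marks neither list as different. Among single genes, the desaturase Scd2 was 9.78, 9.71 and 9.60 in wild type and 9.84, 10.10 and 10.52 in POR-null. Its other probe sets gave 0.51 and 0.34, both with overlap. Fasn, the fatty acid synthase, was higher by 0.23 on quercetin and 0.31 on the control diet, without overlap on either. Fatty acid oxidation genes counted 15 higher and 20 lower of 36 on quercetin (median -0.01), whereas 33 of 36 were lower on the control diet (median -0.24). Ppara, the nuclear receptor that drives fatty acid oxidation, was lower without overlap by 0.34 on quercetin, and Acadvl, the very long chain acyl-CoA dehydrogenase, by 0.18 with overlap. Bile acid genes counted 11 higher and 4 lower of 15 (median 0.033). Fabp6, the ileal bile acid binding protein, was 6.96, 7.63 and 7.62 in wild type and 7.25, 5.13 and 4.86 in POR-null. POR-null arrays 2 and 3 were low for Fabp6 and array 1 was not, and its difference of -1.66 came with overlap.

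MHC class II genes, by which macrophages, dendritic cells and B cells present antigen, were lower in mean in POR-null on quercetin. All 9 measured genes were lower in mean, with a median of -0.61, and 1 of the 9 (H2-DMa) had an unadjusted p under 0.05, against 1.33% of all genes lower at that level. Cd74, the invariant chain, was 9.49, 10.59 and 10.93 in wild type and 8.97, 9.32 and 9.48 in POR-null. H2-DMa, the peptide exchange factor, was 5.99, 6.73 and 7.36 against 5.79, 5.86 and 5.60. Both were free of overlap, by a narrow gap, and wild type array 1 was the lowest wild type pool for each. On the control diet all 9 genes were higher in POR-null, with a median of 1.06. The list's median was -0.983 without wild type array 1 and -0.333 without wild type array 3, the pool with the highest smooth muscle mean, and -0.35 without that pool and POR-null array 2. Whether that pool's tissue content bears on the difference was not tested. In bulk tissue, fewer cells of a type and less RNA per cell cannot be told apart.

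B and plasma cell markers lay the same way, with 17 of 22 lower and a median of -0.30 (-0.146 without wild type array 2), against 0.26 on the control diet. Cd79b, a signalling chain of the B cell receptor, was 6.48, 8.78 and 7.72 in wild type and 6.15, 5.93 and 6.60 in POR-null. Wild type arrays 2 and 3 were high for Cd79b, and wild type array 1 lay within the POR-null range. Blk, a B cell kinase, differed by -0.40, and 4 of the 22 genes were lower at an unadjusted p under 0.05, against 1.33% of all genes. Irf4, a transcription factor of plasma cells and activated lymphocytes, was 5.30, 5.40 and 5.52 in wild type and 5.68, 5.66 and 5.62 in POR-null by its brightest probe set, a difference of 0.25. Its other probe set gave -0.30, so the probe sets of Irf4 disagree in direction. Macrophage and dendritic cell markers counted 8 higher and 15 lower (median -0.057) and T and NK cell markers 9 higher and 16 lower (median -0.063). Lyz2, the lysozyme of myeloid cells, differed by -1.01 with overlap.

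Interferon genes were counted in 2 lists. Of 22 type I interferon response genes 16 were higher and 6 lower (median 0.162), including Ifit3 (0.43), Bst2 (0.38) and Oas3 (0.28), antiviral effectors whose groups overlapped. That median was 0.0075 without wild type array 1. Of 19 guanylate binding proteins and immunity-related GTPases and their partners, 15 were lower and 4 higher (median -0.087), although Gbp2b was the gene of this list with the largest difference. That median was -0.205 without wild type array 1 and 0.0083 without wild type array 3. Cxcl9, a chemokine induced by interferon gamma, was lower by 0.27 without overlap. Of these 19, 18 were higher in POR-null on the control diet (median 0.273).

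Genes of tissue outside the mucosal epithelium varied with single pools. All 21 acinar genes were higher in mean in POR-null on quercetin (median 0.92), and 15 of the 21 were lower on the control diet (median -0.987). On the control diet the list mean was 8.58, 7.34 and 6.59 in wild type and 6.87, 6.92 and 6.84 in POR-null. Wild type control array 1 was thus the brightest pool there, and wild type control array 3 lay below all POR-null control pools. Ctrb1 was 6.85, 7.91 and 6.97 in wild type and 7.96, 11.10 and 7.40 in POR-null, so a single bright pool, POR-null array 2, set its mean, and without it the difference was 0.437. The acinar median was 0.18 without POR-null array 2 and 0.03 without that pool and wild type array 3. The 10 acinar list genes among the 16 large differences thus come with the pool that stands apart. Outside the list, 2210010C04Rik had the same profile, at 7.77, 11.07 and 6.62 in POR-null arrays 1 to 3. Whether carried-over pancreas bears on these genes was not tested. Smooth muscle genes counted 16 of 18 lower (median -0.375). Their direction turned to 0.324 without wild type array 3, where Myh11, the smooth muscle myosin, was 10.23 against 5.64 and 7.48 in the other wild type pools. Fibroblast genes counted 22 of 28 lower (median -0.127, and 0.0108 without wild type array 3) and endothelial genes 15 of 19 (median -0.04, and 0.0283 without POR-null array 2). Adipoq, the adipocyte hormone, was 4.08, 6.54 and 5.63 in wild type and 4.44, 5.15 and 3.93 in POR-null, with wide overlap.

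Small intestine genes counted 19 of 23 higher in POR-null on quercetin (median 0.217) and 21 of 23 lower on the control diet (median -0.457). Their mean was 6.81, 7.91 and 7.62 in wild type and 7.68, 7.84 and 7.32 in POR-null, so wild type array 1 was the lowest pool. Without it the median was -0.143, in the other direction. Cyp3a11 and Itln1 were also lowest in that pool, which was not tested as a cause.

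**Figure D5:**
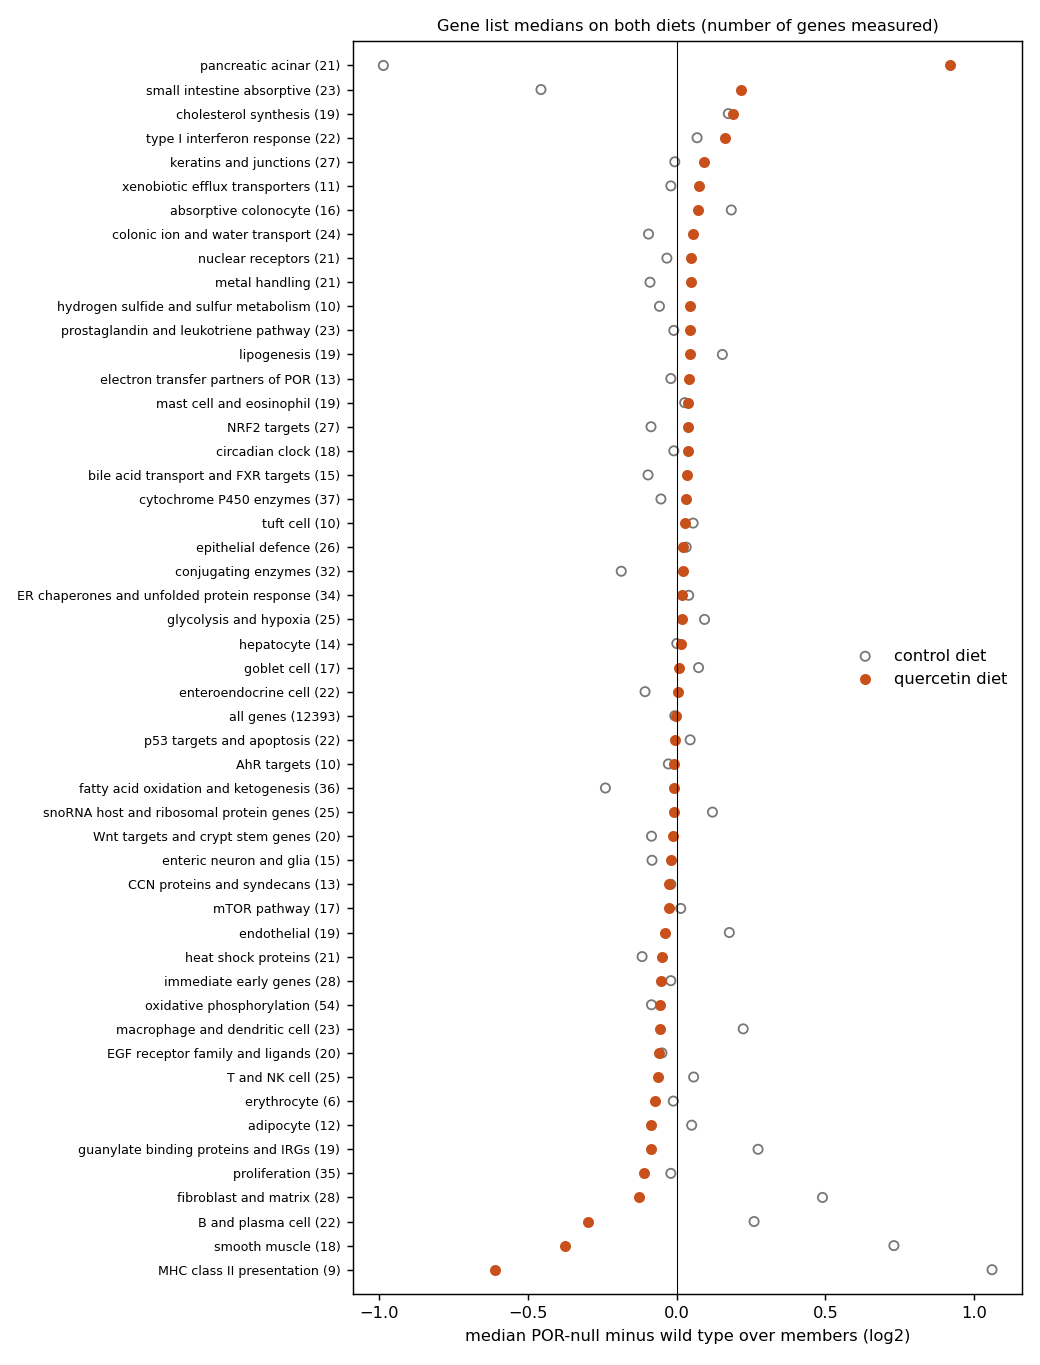
Median genotype difference (POR-null minus wild type, log2) over the measured members of 50 gene lists and over all genes, on the quercetin diet (filled) and the control diet (open). The acinar (0.92 and -0.987), smooth muscle (-0.375 and 0.73) and MHC class II lists (-0.61 and 1.06) lie far from 0 in opposite directions on the 2 diets, and cholesterol synthesis lies above 0 on both (0.19 and 0.173).

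In the epithelium itself, 13 of 16 absorptive colonocyte genes were higher in POR-null on quercetin (median 0.072). Muc3, a membrane mucin of the brush border, was 12.79, 12.88 and 12.73 in wild type and 13.06, 13.03 and 12.92 in POR-null. Muc3 was without overlap on both diets, with differences of 0.20 and 0.22. Goblet cell genes counted 10 higher and 7 lower (median 0.007). Pyy, a hormone of enteroendocrine cells that slows gut transit and lowers appetite, was 9.78, 9.19 and 9.07 in wild type and 9.73, 9.88 and 9.96 in POR-null. It differed by 0.51 with overlap, while the enteroendocrine list as a whole counted 11 higher and 11 lower.

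Of 26 epithelial defence genes 14 were higher and 12 lower (median 0.022), and 3 were higher at an unadjusted p under 0.05, against 0.944% of all genes higher at that level. Itln1, intelectin 1, a lectin of goblet and Paneth cells that binds microbial sugars, was 6.82, 10.29 and 8.27 in wild type and 10.33, 10.89 and 12.19 in POR-null. The groups just failed to meet, at 10.29 and 10.33, and the wild type pools spread widely. Its difference of 2.68 log2 units (SE 0.83, 95% interval 0.89 to 4.47) was the largest of any gene by its brightest probe set, and on the control diet Itln1 was lower in POR-null by 1.63. Reg1, another of the 3 and also an acinar product, differed by 1.49 with overlap, and by 0.565 without POR-null array 2, where it was 8.32. Pigr, the last of the 3 and the receptor that carries IgA into the lumen, was 12.51, 12.67 and 12.29 against 12.77, 12.75 and 12.60, a difference of 0.22. Keratins and junction genes counted 20 higher and 7 lower of 27 (median 0.09), with Ezr, the microvillus linker ezrin, at 0.26 and, by its other probe set, 0.07.

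Growth genes were more often lower than higher in mean. Of 35 proliferation genes, 27 were lower and 7 higher (median -0.11), 0 of them at an unadjusted p under 0.05. Top2a, the topoisomerase of dividing cells, was 7.72, 7.45 and 7.39 in wild type and 6.45, 7.52 and 7.32 in POR-null, and Mcm6 of the replicative helicase was 7.82, 7.27 and 7.22 against 6.63, 7.13 and 7.48. Their other probe sets gave -0.10 and -0.13. POR-null array 1 was lowest for both, and without it the median of the list was 0.0033. Of 28 immediate early genes, which respond within minutes to growth factors and stress, 17 were lower and 10 higher (median -0.052). Btg2, an antiproliferative one, was 9.17, 8.72 and 8.74 against 8.56, 8.46 and 8.50, lower by 0.37 without overlap, while its other probe set gave -0.02 with overlap. Egr2, a zinc finger factor, was lower by 0.26 without overlap, and by 0.11 by its other probe set. A list of 20 genes held the EGF receptor family, its ligands, and genes of ligand release, signalling and feedback. Of these, 15 were lower (median -0.058), with the ligand Btc at -0.30 without overlap and at -0.04 by its other probe set.

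Oxidative phosphorylation genes counted 40 of 54 lower in POR-null on quercetin (median -0.055) and 40 of 54 on the control diet (median -0.085), with 31 lower on both. The sizes were small, as for Atp5k, a subunit of ATP synthase, at 10.98, 11.06 and 11.19 in wild type and 10.83, 10.94 and 10.89 in POR-null (-0.19), and its other probe sets gave -0.04 and 0.08. Without POR-null array 3 the median of the list was 8e-04. Glycolysis genes counted 14 higher and 11 lower of 25 (median 0.017), ER chaperones 22 and 12 of 34 (median 0.018), heat shock proteins 8 and 12 of 21 (median -0.05) and mTOR pathway genes 7 and 10 of 17 (median -0.027). Metal handling genes counted 16 higher and 5 lower of 21 (median 0.047). The metallothioneins Mt1 and Mt2, which bind zinc and copper, were higher by 0.44 and 0.49 on quercetin and lower by 0.31 and 0.61 on the control diet, with overlap on quercetin.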

How the data were processed

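Log2 signal of 22690 probe sets on 12 arrays was used as the authors deposited it. MAS5 and RMA are named, per the submitters' processing notes, with no role given, and the deposited log2 scale was inferred from the values, which run from 2.7 to 14.09. The 64 control probe sets were left out, with no filter on signal. Of 22626 probe sets, 20380 had 1 gene symbol, 691 several and 1555 none. A linear model with 4 group means was fitted to all 12 arrays with limma 3.58.1 in R 4.3.3 (lmFit, eBayes with a variance trend), two-sided, with Benjamini-Hochberg adjustment over all probe sets and a threshold of 0.05, and was tested on simulated data. With 3 arrays against 3, an exact permutation test cannot go below p = 0.1.

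The 50 lists hold 1 probe set a gene, the brightest. Named were the 12 higher and 12 lower genes of the lowest p without overlap, up to 3 members a list, 8 fixed genes, 10 control diet genes, and 6 and 5 genes of the average and the interaction. Other names (Hmgcs1, Cyp51, Ebp, Sc5d, Tm7sf2, Myh11 and the genes past 1 log2 unit) were chosen after their values were seen. Members and lists were chosen with earlier results of these data known. Pools were not treated as paired by replicate number in the fit reported. Deviations of same-numbered quercetin arrays correlated by -0.115, 0.24 and 0.039, and those of other-numbered ones by -0.267 to 0.194. So few values cannot decide whether same-numbered pools shared their handling. Alternatives were other variance models, normalizations and filters, the replicate block, and leaving out arrays.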

Additional observations from a re-analysis of the deposited data

Results flagged for a closer look

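For 7 named genes the arrays of each diet were free of overlap between the genotypes and the direction differed between the diets. The difference between the 2 genotype effects was tested with limma over all probe sets, and none of the 7 passed, since the lowest Benjamini-Hochberg adjusted p of that test was 0.45. The genotype difference on quercetin minus that on the control diet was 3.20 log2 units for Ccn3, 0.86 for Deptor, 0.68 for the trypsinogen Prss3 and 0.33 for Abcc5. It was -0.60 for Zfp46, -0.54 for Cst7 and -0.33 for Egr2. These 7 stand beside 40 genes (0.323% of 12393) with the same pattern by their brightest probe set.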

How the results depend on the processing

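The count of probe sets past the adjusted threshold on quercetin, 0 in the fit reported, was 1 (Sdc4, limma Benjamini-Hochberg adjusted p = 0.04666) with the replicate block and 1 (Sdc4) in a fit of the 6 quercetin arrays, and 0 to 1 when each array was left out. The block moved no other call of a named gene. The control diet count was 399 with array weights, and 0 to 41 when each array was left out, the highest without wild type control array 1. It was 0 to 2 for the average over diets and 0 to 1 for the interaction. Keeping probe sets at or above the median signal left 226 with an unadjusted p under 0.05 and 691 without overlap, as fewer were tested. Leaving out arrays gave 428 to 765 and 3172 to 3978, and 6559 without overlap when wild type quercetin array 3 and POR-null quercetin array 2 were both left out, as fewer arrays were compared. Without both, the list medians were 0.08 for lipogenesis, -0.055 for NRF2 targets and 0.03 for acinar genes. Over single arrays left out, 17 of the 50 list medians kept their sign, among them cholesterol synthesis (0.115 to 0.197), acinar genes (0.18 to 1.55), MHC class II (-0.983 to -0.333), B and plasma cells (-0.522 to -0.146) and keratins (0.0517 to 0.0933). The other 33 turned sign. Among these, medians ran from -0.96 to 0.324 for smooth muscle, -0.143 to 0.335 for small intestine, -0.308 to 0.0108 for fibroblasts, -0.0983 to 0.0283 for endothelium, -0.205 to 0.0083 for guanylate binding proteins, -0.113 to 0.0033 for T and NK cells, -0.223 to 0.0033 for proliferation, -0.103 to 0.113 for goblet cells, -0.0883 to 0.0633 for heat shock, -0.055 to 0.0717 for bile acid genes, -0.0167 to 0.095 for P450s, -0.0025 to 0.0275 for conjugating enzymes, -0.04 to 0.0917 for NRF2 targets, -0.0417 to 0.0433 for glycolysis, -0.0608 to 0.0567 for fatty acid oxidation, -0.04 to 0.09 for nuclear receptors, -0.0192 to 0.0375 for p53 targets and -0.075 to 8e-04 for oxidative phosphorylation. Of the 175 genes the naming rule gives, 12 turned sign under some alternative. Over single arrays left out they ran from -1.2067 to 0.2833 for Des and -0.99 to 0.115 for Flna, both of smooth muscle, -0.4017 to 0.1133 for Cryab, -0.1467 to 0.0933 for Slc27a2, -0.1083 to 0.0317 for Lgalsl, -0.05 to 0.0667 for Cyp1a1, -0.1317 to 0.0433 for Nqo1, -0.2333 to 0.1017 for Mpst, -0.025 to 0.11 for Ahrr, -0.0333 to 0.2917 for Nr0b2, 0.0067 to 0.4167 for Creb3l1 and -0.265 to -0.03 for Nefl. Without both arrays the values were 0.36 for Des, 0.24 for Flna, 0.12 for Cryab, 0.04 for Nefl, -0.055 for Creb3l1 and -0.185 for Slc27a2, which was -0.0254 with array weights. The cause was not tested. Over all alternatives, 2528 values of named genes kept direction and call, 22 turned sign and 4 passed the threshold (Sdc4 under 2 fits, Ccn3 and Gbp2b without 1 array each).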
